A study of Mus musculus with 13 samples.

Results

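The fibroblast growth factor (FGF) genes followed here were the 10 with the symbols Fgf1, Fgf7, Fgf10, Fgfr1, Fgfr2, Fgfr3, Spry1, Spry2, Etv4 and Etv5. They were chosen by symbol, as ligands, receptors and response genes of the pathway that drives branching of the gland, out of 23364 genes listed for every sample. All 10 passed the filter of at least 1 FPKM in at least 1 sample, as did 14650 genes in all. FPKM is fragments per kilobase of gene, scaled to the reads of each sample, a relative level that can be compared between genes.

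FGF ligands bind receptor tyrosine kinases with the help of heparan sulfate, and the receptors signal through the Ras and MAPK kinases. In the embryonic submandibular gland, Fgf10 and Fgf7 are made by the mesenchyme and are best known as ligands of an epithelial splice form of Fgfr2, and buds without this signal do not branch. Etv4 and Etv5 are Ets-family transcription factors, and Spry1 and Spry2 encode Sprouty inhibitors of the MAPK cascade. All 4 are induced by FGF signalling in many branching organs and serve as its readout.

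RNA of whole submandibular glands of C57BL/6 mice was sequenced in 13 samples, 3 of them from E14.5 embryos (E for embryonic day) and 2 from each of E16.5, E18.5, postnatal day 5 (P5), 4wk and 12wk. Following the study, the 7 embryonic samples, the 2 neonatal (P5) samples and the 4 adult samples (4wk and 12wk) formed 3 stages. Time points of a stage count as replicates in stage comparisons, so their SE and p mix differences between time points with replicate spread. Their log2 fold changes also depend on how many samples each time point gave. No animal was treated or carried a transgene. Glands of 3 animals were pooled for a sample at E14.5, and glands of 2 at E16.5 and at E18.5. The sex of embryos and P5 mice was not determined, whereas the adults were male, so sex and age cannot be told apart in the adult comparisons. Whole glands hold epithelium, mesenchyme, vessels and nerve, and fewer cells of a type and less RNA per cell cannot be told apart in any level given here.

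Reads on genes ranged from 5817293 in 4wk replicate 1 to 48314162 in P5 replicate 1, so adult values at 4wk are the least precise. The 10 highest genes of a sample took 5.93% to 9.27% of all FPKM at E14.5 and E16.5, at least 14.4% at E18.5, 29.2% and 31.1% at P5 and 48.1% to 61.1% in the adult. FPKM of the other genes are lowered by this share, and the median log2 fold change of all tested genes was -0.75 from embryo to adult. Division of each sample by its median-of-ratios factor (0.617 to 1.38) brought this median to -0.08, and results that depend on this rescaling are named as such. Epcam, an epithelial marker, was between 101 and 307 FPKM in all samples, and the summed FPKM of 11 secretory acinar markers was at least 137211 in every adult sample and at most 529 at E14.5. E14.5 replicate 1 stood apart from the other E14.5 samples, with 142 FPKM of the cartilage collagen gene Col2a1 against 2.87 and 4.04, and with a lower epithelial marker sum (476 against 799 and 771). Skeletal muscle markers summed to 786, 343 and 261 FPKM at E14.5, to 1212 and 1632 FPKM at E16.5 and to 54.2 or less from E18.5 on. Whether these tissues carry a part of any value below was not tested.

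Fgf10 was highest at the start and lower at each time point than at the one before (plot of FPKM by sample). It was at 22.1, 19.5 and 20.7 FPKM at E14.5, then 11.2 and 10.6 at E16.5, and 9.84 and 7.995 FPKM at E18.5. It reached 5.76 and 5.51 FPKM at P5, 2.26 and 2.75 FPKM at 4wk, and 0.992 and 1.06 at 12wk. No value of a time point overlapped with that of the next, and Fgf10 had the largest change of the 3 ligands between embryo and adult, at a log2 fold change of -2.46 ± 0.28 (SE, adult minus embryo, adjusted p = 3.3e-06, limma). After rescaling it was -1.74 ± 0.28 and still called.

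**Figure D1:**
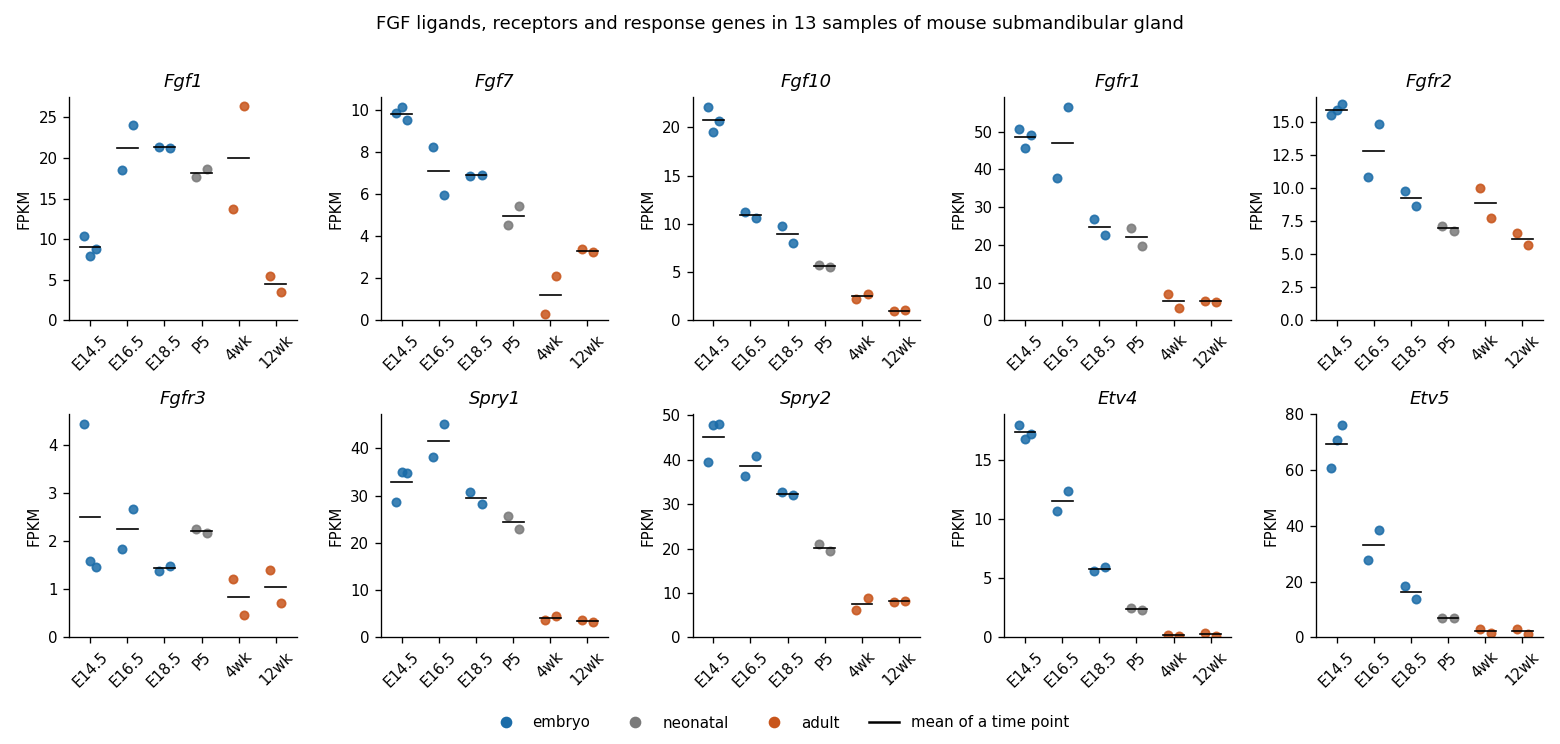
FPKM (y axis, linear from 0) of the 10 genes in the 13 samples, by time point (x axis). Points are samples, coloured by stage, and black lines are the mean of a time point. Etv5 fell from 60.7 to 76.3 FPKM at E14.5 to at most 3.10 FPKM in the adult, while Fgf1 was highest between E16.5 and 4wk.

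Fgf7, which belongs to the same FGF subfamily as Fgf10, had a less steady course. Its FPKM were 9.86, 10.1 and 9.55 at E14.5, then 8.24 and 5.96 at E16.5, 6.88 and 6.92 FPKM at E18.5, then 4.54 and 5.44 at P5. At 4wk it was at 0.322 FPKM (5 reads) in replicate 1 and 2.12 FPKM (45 reads) in replicate 2, and at 12wk at 3.38 and 3.24 FPKM. The 4wk replicates thus lay far apart, with exact Poisson intervals of 0.104 to 0.751 and 1.54 to 2.83 FPKM at the 95% level, which cover counting error alone. The adult samples were all below the embryonic ones, with a log2 fold change of -1.62 ± 0.28 (adjusted p = 1.2e-04, limma). This call was lost after rescaling, at -0.91 ± 0.32.

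Fgf1, a ligand that binds all FGF receptors, followed another course. It was at 10.5, 7.99 and 8.81 FPKM at E14.5 and rose to 18.46 and 24.0 at E16.5. It stayed between 17.7 and 21.4 FPKM in the next samples, with 21.4 and 21.2 at E18.5 before 17.7 and 18.6 at P5. At 4wk it was at 13.7 and 26.4 FPKM, the widest gap of any time point, and at 12wk at 5.45 and 3.54. The 3 E14.5 samples were below every later sample up to 4wk, and the 12wk samples below all others. With low values at both ends, the adult and embryonic samples overlapped and Fgf1 was not called between these stages (log2 fold change -0.60 ± 0.44, adjusted p = 0.22, limma). That value changed sign to 0.26 after rescaling and was -1.07, and called, without 4wk replicate 2. Voom, a limma method for counts run on the whole reads recovered from the FPKM and added after seeing the data, also called it, at -1.06.

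The make-up of the ligands changed within samples, which no scaling of a sample affects. These ratios were chosen after the values were seen and are given without a test. Fgf10 exceeded Fgf7 by a ratio of 1.93 to 2.24 at E14.5, of 1.36 and 1.77 at E16.5 and of 1.01 to 1.43 at E18.5 and P5, and was at 0.294 and 0.328 of Fgf7 at 12wk. Fgf1 was at 0.409 to 0.473 of Fgf10 at E14.5 and above Fgf10 in every later sample, by 1.65 to 9.59. At 4wk the ratio of Fgf10 to Fgf7 was 7.01 and 1.30, and the higher value rests on the 5 reads of Fgf7.

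Fgfr1, a receptor tyrosine kinase best known from mesenchymal cells, was the most abundant receptor gene until P5. It was at 50.8, 45.7 and 49.1 FPKM at E14.5, then 37.7 and 56.5 at E16.5, 27.0 and 22.7 FPKM at E18.5, then 24.6 and 19.8 at P5. At 4wk it was at 7.11 and 3.36 FPKM and at 12wk at 5.26 and 4.94. All adult samples were below all others, and the log2 fold change was -2.75 ± 0.24 between adult and embryo (adjusted p = 3.1e-07, limma) and -1.90 ± 0.21 after rescaling.

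Fgfr2 encodes the receptor of Fgf7 and Fgf10 in its epithelial splice form, and the values are sums over all splice forms. It was at 15.5, 15.9 and 16.3 FPKM at E14.5, then 10.8 and 14.8 at E16.5, 9.80 and 8.68 FPKM at E18.5, then 7.16 and 6.73 at P5. It was at 10.03 and 7.76 FPKM at 4wk and 6.61 and 5.72 at 12wk, so adult and embryonic samples overlapped. Its log2 fold change between adult and embryo was -0.72 ± 0.19 (adjusted p = 0.0038, limma), short of the fold threshold, and 0.14 ± 0.16 after rescaling. After rescaling its adult values thus lay near the embryonic ones, while its ligand Fgf10 was called lower. The difference between both genes was not tested.

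Fgfr3 was low throughout, between 0.457 FPKM (16 reads) in 4wk replicate 2 and 4.44 FPKM in E14.5 replicate 1. It was at 1.59 and 1.46 FPKM in the other E14.5 samples, then 1.84 and 2.66 at E16.5, 1.39 and 1.49 FPKM at E18.5, then 2.25 and 2.18 at P5, 1.21 and 0.457 FPKM at 4wk, and 1.40 and 0.712 at 12wk. The highest value came from the library with high Col2a1. Fgfr3, a receptor known for its part in growth cartilage, was not called in any comparison of stages with limma on log2(FPKM + 1). For adult against embryo its log2 fold change was -0.65 ± 0.23 (adjusted p = 0.018, limma), and -0.51 without E14.5 replicate 1. It was called at a pseudocount of 0.1 (-1.08) and by voom on recovered reads (-1.12), which give more weight to low values.

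As a share of the summed FPKM of Fgfr1 to Fgfr4, Fgfr1 held 68.1% to 74.2% in the embryo, 68.7% and 71.9% at P5, and 29.0% to 43.4% in the adult (plot of receptor shares). Fgfr2 held 19.5% to 26.3%, 20.9% and 23.3%, and 49.4% to 67.0% in the same order. The ratio of Fgfr1 to Fgfr2 was accordingly between 2.62 and 3.81 in the 9 embryonic and neonatal samples and between 0.433 and 0.864 in the 4 adult samples. Fgfr3 held 2.16% to 10.4% in all samples. Fgfr4 held 5.21% in E14.5 replicate 1 and at most 2.80% in the others, and was at 0 in both 4wk samples.

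**Figure D2:**
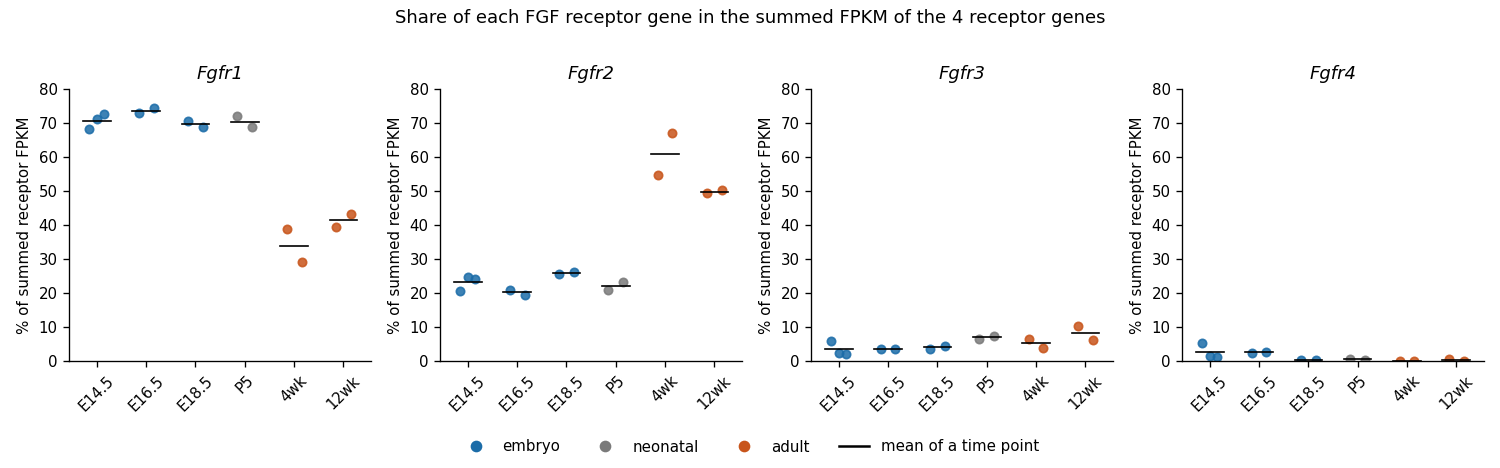
Percent of the summed FPKM of the 4 FGF receptor genes (y axis) by time point (x axis), a panel per gene. Points are samples, coloured by stage, and black lines are means of a time point. Fgfr1 lies at 68.1% or above until P5 and at 43.4% or below in the adult, where Fgfr2 lies at 49.4% or above.

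Of the Sprouty inhibitors, Spry1 stayed at 23.0 FPKM or more through P5 and fell between P5 and 4wk. The mean of Spry2 was lower at each time point up to 4wk, going from 45.2 FPKM at E14.5 to 20.2 at P5 and 7.44 at 4wk. Spry1 was at 28.7, 35.0 and 34.9 FPKM at E14.5, then 38.1 and 45.1 at E16.5, 30.7 and 28.2 FPKM at E18.5, then 25.7 and 23.0 at P5, 3.59 and 4.49 FPKM at 4wk, and 3.59 and 3.23 at 12wk. Spry2 was at 39.5, 47.9 and 48.1 FPKM at E14.5, then 36.3 and 40.8 at E16.5, 32.6 and 32.1 FPKM at E18.5, then 21.1 and 19.3 at P5, 6.10 and 8.79 FPKM at 4wk, and 7.95 and 8.24 at 12wk. For both genes the 4 adult samples were far below the 9 others and close to each other. Between adult and embryo, the log2 fold change was -2.89 ± 0.14 for Spry1 (adjusted p = 1.4e-09, limma) and -2.21 ± 0.14 for Spry2 (adjusted p = 1.7e-08, limma). After rescaling the values were -2.07 and -1.32, and both remained called. Spry1 was at 0.725 to 0.732 of Spry2 at E14.5, at 0.878 to 1.22 from E16.5 to P5 and at 0.393 to 0.589 in the adult.

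Etv5 and Etv4, the transcription factors of the response, were lower at each time point up to 4wk than at the one before. Etv5 was at 60.7, 70.9 and 76.3 FPKM at E14.5, then 27.6 and 38.5 at E16.5, 18.4 and 13.9 FPKM at E18.5, then 7.09 and 7.13 at P5, 3.10 and 1.45 FPKM at 4wk, and 3.08 and 1.32 at 12wk. Etv4 was at 18.0, 16.8 and 17.3 FPKM at E14.5, then 10.7 and 12.4 at E16.5, 5.60 and 5.95 FPKM at E18.5, then 2.47 and 2.32 at P5. Its adult values were 0.221 and 0.161 FPKM at 4wk, from 3 reads each, and 0.392 (20 reads) and 0.136 FPKM (9 reads) at 12wk. No sample of a time point overlapped with the next before 4wk, whereas 4wk and 12wk samples of both genes overlapped.

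Between adult and embryo, Etv5 had the largest log2 fold change of the 10 genes, -3.60 ± 0.42 (adjusted p = 3.7e-06, limma), and Etv4 followed at -3.34 ± 0.29 (adjusted p = 2.5e-07, limma). After rescaling they were -2.84 and -2.90. The scale of log2(FPKM + 1) understates the fall of Etv4, and on recovered reads, each time point scaled to its total, its pooled ratio of E14.5 to 4wk was 92.9, with an exact interval of 42.6 to 253 at the 95% level for counting error alone. This ratio is without rescaling and would be smaller with it, as the rescaled means of Etv4 were 13.2 FPKM at E14.5 and 0.285 at 4wk. Etv1, the third gene of the Etv1, Etv4 and Etv5 subfamily, went the other way within the embryo, from 4.10, 7.66 and 7.63 FPKM at E14.5 to 43.6 and 40.0 at E18.5, and was at 34.1 to 43.6 in the adult samples. The ratio of Etv5 to Etv1 therefore went from 9.26 to 14.8 at E14.5 to 0.0306 to 0.0910 in the adult. Etv1 is named here after its values were seen.

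The 250 bases before the start sites of Etv5, Spry1 and Fgf10 are shown (RefSeq, GRCm38.p6, printed 5′ to 3′ in the direction of the gene). These genes were lower in every adult sample than in every embryonic one. The same holds for Fgf7 and Spry2, whose windows are described below but not shown. Capitals mark matches on either strand to a pair of promoter motifs, which shared no base in these windows. One is the GC box, spelled GGGCGG, and the other is the motif named after its own letters, CCAAT. Windows of 7 of the 10 genes were matched by symbol, 9 in all since Etv5 and Fgfr3 have 2 starts each.
Etv5, chr16:22439571-22439820, minus strand: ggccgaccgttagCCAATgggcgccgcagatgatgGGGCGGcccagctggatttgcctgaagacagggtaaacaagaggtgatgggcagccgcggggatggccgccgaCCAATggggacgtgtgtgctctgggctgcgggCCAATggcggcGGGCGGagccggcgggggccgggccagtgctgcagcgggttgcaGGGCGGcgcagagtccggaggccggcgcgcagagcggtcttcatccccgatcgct
Spry1, chr3:37639697-37639946, plus strand: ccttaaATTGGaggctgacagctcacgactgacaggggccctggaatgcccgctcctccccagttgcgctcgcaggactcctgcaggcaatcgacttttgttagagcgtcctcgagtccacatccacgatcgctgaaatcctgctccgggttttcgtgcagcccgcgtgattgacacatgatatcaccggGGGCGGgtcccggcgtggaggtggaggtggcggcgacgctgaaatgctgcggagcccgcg
Fgf10, chr13:118714449-118714698, plus strand: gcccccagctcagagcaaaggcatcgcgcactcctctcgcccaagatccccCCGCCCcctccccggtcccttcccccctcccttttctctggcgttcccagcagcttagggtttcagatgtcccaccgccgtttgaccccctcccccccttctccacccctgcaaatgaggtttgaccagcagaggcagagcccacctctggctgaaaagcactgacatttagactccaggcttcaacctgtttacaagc
The Etv5 window shown, the first of its 2 starts, holds 3 GC boxes, 3 CCAAT boxes and 27 CG pairs at 71.2% G and C, that of Spry1 1 GC box, 1 CCAAT box and 23 CG pairs at 62.4%, and that of Fgf10 1 GC box, no CCAAT box and 8 CG pairs at 61.2%. The window of the other Etv5 start holds 0 GC boxes, 1 CCAAT box and 18 CG pairs at 62.0%. That of Spry2, not shown, holds 0 GC boxes, 0 CCAAT boxes and 23 CG pairs at 62.4%. That of Fgf7, not shown, holds 0 GC boxes, 1 CCAAT box and 6 CG pairs at 43.6%. Over 32851 windows of the same length, the median was 52.4% G and C with 6 CG pairs, and 32.7% held GGGCGG and 33.8% CCAAT. Of the 9 windows of these genes, 5 held GGGCGG and 5 held CCAAT. The letters CCGGAA, bound by Ets factors, were in 0 of the 9 windows and in 12.0% of all windows.

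In the mm9 genome to which the reads were mapped, the GENCODE annotation places Etv5 at chr16:22381382-22439792 and Etv4 at chr11:101631056-101646685, both on the minus strand. Fgf10 lies at chr13:119458598-119580922, Fgf7 at chr2:125860394-125916921, Fgfr1 at chr8:26624126-26686186, Fgfr3 at chr5:34064373-34079716 and Spry1 at chr3:37538869-37543520, all on the plus strand, and Spry2 at chr14:106291166-106296036 on the minus strand. Exons of Fgf10 overlap those of Gm16263, exons of Fgfr1 those of Gm16159 and exons of Fgfr2 those of Ctbp2 there. Reads on more than 1 gene were left out by the authors' counting. If the gene set they counted on held the same overlaps, these levels may be low, and with them the receptor shares and the ratios to Fgfr2. Whether it did was not checked. Coordinates of Fgfr2 are not given, since its annotated span reaches into Ctbp2 and is in doubt.

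The comparison of adult with embryonic glands called 7 of the 10 genes lower and 0 higher (plot of adult against embryo). Of all tested genes 38.0% were called lower and 5.58% higher, and all 4 adult samples were below all 7 embryonic samples for the same 7 genes and for 54.1% of all genes. After rescaling 6 of the 10 were called lower, against 14.7% of all genes, and the 6 were Fgf10, Fgfr1, Spry1, Spry2, Etv4 and Etv5. The median log2 fold change of the 10 was -2.33 beside -0.75 for all genes, and -1.53 beside -0.08 after rescaling. The 3 genes not called were Fgf1, Fgfr2 and Fgfr3, and the signs of Fgf1 and Fgfr2 turned with rescaling.

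**Figure D3:**
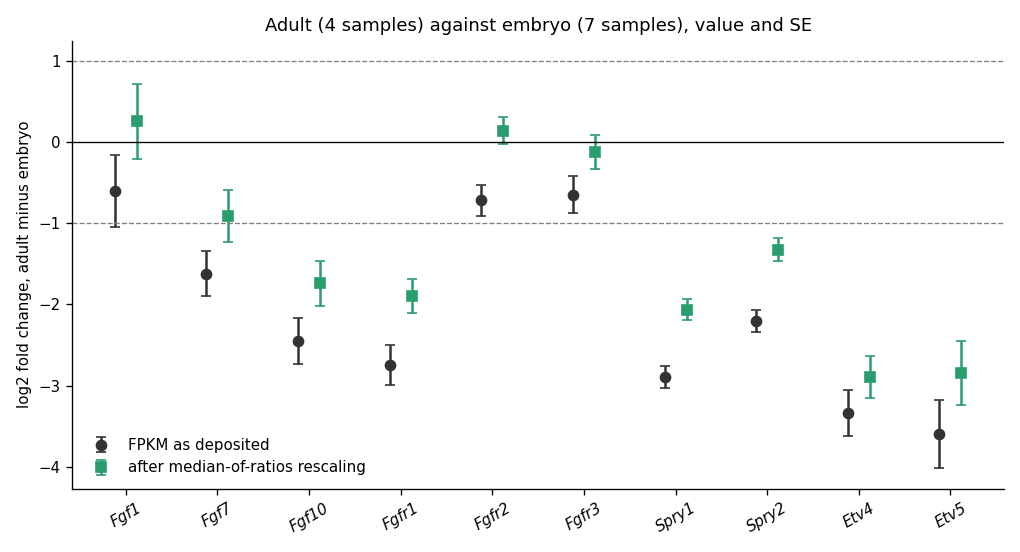
Log2 fold change of the 10 genes, adult (4 samples) minus embryo (7 samples), on the scale of log2(FPKM + 1), as deposited (circles) and after median-of-ratios rescaling (squares). Bars are the SE from limma, and dashed lines mark the fold threshold of 1 on the log2 scale. Etv5 lies lowest as deposited (-3.60), and Fgf1 and Fgfr2 cross 0 with rescaling.

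P5 glands differed from embryonic glands in 3 of the 10 genes, all lower, where 8.14% of all genes were called lower. They were Etv5 (log2 fold change -2.22 ± 0.54, adjusted p = 0.01, limma), Etv4 (-1.87 ± 0.37, adjusted p = 0.0042, limma) and Fgf10 (-1.14 ± 0.36, adjusted p = 0.033, limma). Fgf10 was not called after rescaling, at -0.89. Without P5 replicate 1, Etv4 alone was called, and without P5 replicate 2 Fgf10 was at -1.11 and not called. Spry1 and Spry2 were at -0.47 and -0.92 in this comparison and were not called.

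Adult against P5 glands called 7 of the 10 genes lower, where 20.8% of all genes were. The largest were Spry1 (log2 fold change -2.43 ± 0.19, adjusted p = 1.8e-06, limma), Fgfr1 (-1.94 ± 0.34, adjusted p = 0.00075, limma) and Etv4 (-1.47 ± 0.40, adjusted p = 0.0094, limma). These 3 held after rescaling, against 8.53% of all genes called lower, whereas Etv5, Fgf10, Spry2 and Fgf7 did not. Etv5 was at -1.38 and lost its call without P5 replicate 1 (-1.38), P5 replicate 2 (-1.37), 4wk replicate 2 (-1.26) or 12wk replicate 2 (-1.23). Fgf7 was at -1.01 and lost its call without P5 replicate 1 (-1.12), P5 replicate 2 (-0.91) or 4wk replicate 1 (-0.63). Fgf1 was at -0.88 and not called, but called without 4wk replicate 2 (-1.34) and by voom on recovered reads (-1.35). Fgfr2 was at 0.08 ± 0.26 in this comparison and 0.69 after rescaling, in neither case called.

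The genes did not share a single time of change. From E14.5 to E16.5, when lumens begin to form, Fgf1 rose (log2 fold change 1.14 ± 0.24, adjusted p = 0.0093, limma) and Etv5 fell (-1.06 ± 0.27, adjusted p = 0.021, limma), where 4.17% of all genes were called higher and 0.983% lower. Fgf10 was at -0.87 ± 0.13 and Etv4 at -0.55 ± 0.14, with adjusted p of 0.0015 and 0.02 in limma, below the fold threshold. Both called genes kept their calls without E14.5 replicate 1, at 1.23 and -1.15. Fgf1 was at 0.96 and not called without E16.5 replicate 2, and Etv5 at -0.82 and not called without E16.5 replicate 1. Without E14.5 replicate 3, Etv5 was at -0.99 and not called.

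Between E16.5 and E18.5, 0 of the 10 genes were called by limma, where 2.94% of all genes were. An unadjusted p below 0.05 in limma was found for 5 of the 10 and for 3764 of all 14650 tested genes. Etv5 was at -0.98 ± 0.29, Etv4 at -0.89 ± 0.15 and Fgfr1 at -0.87 ± 0.26. Voom on recovered reads called 1 gene, Etv5, where it called 6.38% of all genes, and without E16.5 replicate 1 Etv5 (-1.22) and Fgfr1 (-1.16) were called. From E18.5 to P5 Etv5 was called lower (-1.07 ± 0.29, adjusted p = 0.029, limma), where 2.97% of all genes were, and lost the call after rescaling at -0.91. Etv5 also lost the call without E18.5 replicate 1 (-0.88), P5 replicate 1 (-1.06) or P5 replicate 2 (-1.07). Etv4 was at -0.996 ± 0.15 and not called, was called by voom on recovered reads at -1.28, and was called at -1.03 without E18.5 replicate 1 or P5 replicate 1.

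Between P5 and 4wk 6 of the 10 genes fell, where 22.1% of all genes were called lower. Spry1 had a log2 fold change of -2.33 ± 0.15 (adjusted p = 9.8e-07, limma), Fgfr1 of -1.96 ± 0.26, Fgf7 of -1.56 ± 0.31, Etv4 of -1.51 ± 0.15, Etv5 of -1.36 ± 0.29 and Spry2 of -1.35 ± 0.16. Spry1, Fgfr1, Fgf7 and Etv4 remained called after rescaling, where 8.72% of all genes were called lower. Fgf10 was at -0.92 ± 0.14 and short of the fold threshold, and was called without 4wk replicate 2 (-1.03) and by voom on recovered reads (-1.15). Fgfr3 was called without 4wk replicate 1 (-1.14). Fgfr2 had a positive value of 0.31 ± 0.17 and 0.92 ± 0.12 after rescaling, in neither case called, and was called higher by voom with rescaling (1.02, adjusted p = 0.00071, limma). Without 4wk replicate 1, the sample with 5 reads of Fgf7, Fgf7 was at -0.94 and not called, and Etv5 was at -0.98 and not called without 4wk replicate 2. Etv4 at 4wk rests on 6 reads in all, and its pooled ratio of P5 to 4wk was 12.9 with a counting interval of 5.88 to 35.3. That ratio is without rescaling, after which the means of Etv4 were 2.26 FPKM at P5 and 0.285 at 4wk.

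Between 4wk and 12wk 2 of the 10 genes were called, where 2.48% of all genes were called lower and 2.68% higher. Fgf1 fell (-1.89 ± 0.26, adjusted p = 0.0012, limma), and Fgf7 was called higher (1.09 ± 0.31, adjusted p = 0.042, limma). Fgf7 was at 0.47 and not called without 4wk replicate 1, lost the call without either 12wk replicate (1.06 and 1.11), and voom on recovered reads did not call it. Fgf10 was at -0.79 ± 0.14 and not called, and was called by voom on recovered reads (-1.29) and at a pseudocount of 0.1 (-1.20). Fgfr1, Spry1, Spry2, Etv4 and Etv5 had log2 fold changes between -0.19 and 0.13 with SE of 0.15 to 0.29, and were not called.

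Of the 10 genes, Etv5 alone was called higher at E14.5 than at each of the 5 later time points, as were 0.683% of all genes. It was no longer so without E14.5 replicate 3 or without E16.5 replicate 1, where the step from E14.5 to E16.5 lost its call.

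The wider pathway was followed through 6 lists of genes by role, of which 97 genes were tested and included the 10. Between adult and embryo 60 of the 97 were called lower and 2 higher, and 53 and 2 of the 87 without the 10 (plot of pathway lists). After rescaling 26 of the 97 were called lower and 2 higher (26.8% lower), and 20 and 2 of the 87 without the 10 (23.0% lower). Over all genes 38.0% were called lower and 5.58% higher as deposited, and 14.7% and 13.8% after rescaling.

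Of 22 FGF ligand genes 8 were tested, and 4 were called lower and 1 higher (median log2 fold change -1.11), or 2 lower and 1 higher after rescaling (median -0.68). Beside Fgf10 and Fgf7, Fgf18 was lower in every adult sample (-1.999 ± 0.24), at 2.18 to 6.17 FPKM in the embryo and at most 0.475 FPKM in the adult. The gene called higher was Fgf9, an epithelial ligand in several branching organs, at 0.119 to 1.82 FPKM in the embryo, 0.665 and 2.09 at 4wk and 8.33 and 8.62 at 12wk (1.40 ± 0.43), and it is named after its values were seen. Of 10 tested receptors and co-receptors 5 were called lower (median -1.01), and 4 after rescaling (median -0.49), led by Flrt2 (-3.26 ± 0.39), Fgfr1 and Flrt3 (-2.69 ± 0.34), of which the Flrt genes encode membrane proteins that bind FGF receptors.

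The 23 adaptor and Ras-MAPK genes had the smallest shift, with 6 called lower (median -0.82), and 1, Nras, after rescaling (median 0.07). Nras, a Ras GTPase, was at -1.99 ± 0.17 and at -1.12 after rescaling, whereas Plcg1, a phospholipase bound by the receptors, went from -1.83 to -0.99 and Crkl, an adaptor, from -1.47 to -0.63, both then not called. Of 17 tested feedback inhibitors 14 were called lower, and 6 after rescaling, with Spry4 (-2.67 ± 0.25) and Spred1 (-2.27 ± 0.17) next to Spry1. Dusp6, a MAPK phosphatase and a common readout of FGF signalling, was at -1.52 ± 0.13 as deposited and at -0.60 and not called after rescaling, and is named after its values were seen. Of 13 tested transcription factors 8 were called lower (median -1.16) and 4 after rescaling (median -0.27), and 1, Etv1, was called higher, although its adult and embryonic samples overlapped. Ets1 followed Etv5 and Etv4 at -2.12 ± 0.20.

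Heparan sulfate genes had the largest share called lower as deposited, with 23 of 26 called lower, and 9 after rescaling, when the receptor list had the larger share (4 of 10) (median -1.61 and -0.82). Gpc3, a glypican that carries heparan sulfate, had a log2 fold change of -6.62 ± 0.33 and was at 108 to 428 FPKM in the embryo and at most 1.41 FPKM in the adult. Gpc6, another glypican, was at -3.59 ± 0.22, and Sdc1, a syndecan, at -3.29 ± 0.23.

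**Figure D4:**
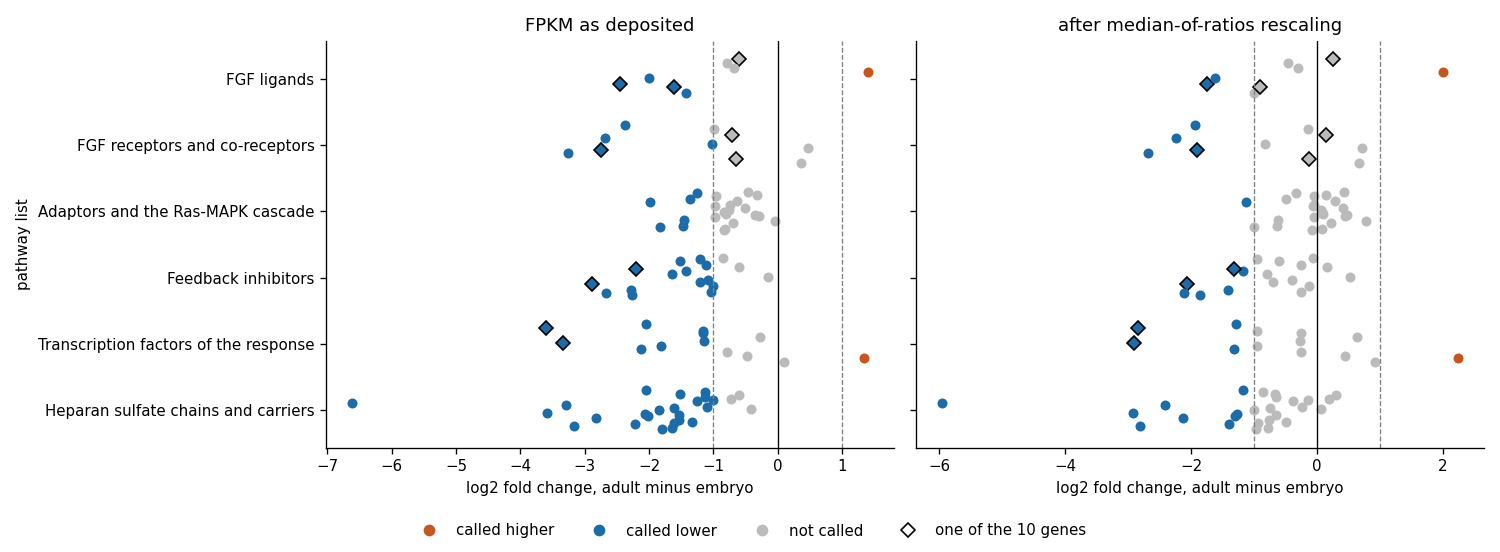
Log2 fold change (x axis), adult minus embryo, of the tested genes of 6 pathway lists (y axis), as deposited (left) and after median-of-ratios rescaling (right), with separate x scales. Each point is a gene, coloured by its call in limma, diamonds are the 10 genes, and dashed lines mark the fold threshold. Fewer genes are called lower after rescaling (26 against 60 of 97).

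Cell type markers did not all move in the same direction. Of 12 mesenchyme markers 11 were called lower in the adult (median log2 fold change -3.29, and -2.52 after rescaling), and their summed FPKM was 2280 to 3567 in the embryo, 2091 and 1889 at P5 and 295 to 589 in the adult. Of 13 epithelium markers 2 were called lower (median -0.25, and 0.63 after rescaling), with sums of 476 to 2062, 1731 and 2029, and 919 to 1052. No epithelium marker was at 0 in any sample, and 1 mesenchyme marker was at 0 in 4wk replicate 1. Of 11 secretory acinar markers 8 were called higher. All 7 endothelium markers, all 10 skeletal muscle markers, 4 of 8 nerve and glia markers and 1 of 6 blood and immune markers were called lower as deposited. After rescaling 3 of the 7 endothelium markers and all 10 skeletal muscle markers were called lower, 3 nerve and glia markers were called lower and 1 higher, and 1 blood and immune marker was called lower and 3 higher. The part of cell composition in the levels of the 10 genes was not tested.

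Ratios to a marker of the same sample, chosen after the values were seen, are given as a description (plot of ratios to markers). Fgf10 was at 0.277 to 0.378 of the mesenchymal receptor gene Pdgfra in the embryo, at 0.279 and 0.313 at P5, at 0.231 and 0.252 at 4wk, and lowest at 12wk with 0.167 and 0.182. The ratio of Fgf10 to Pdgfra thus moved far less than Fgf10 itself, whose means went from 20.8 FPKM at E14.5 to 1.03 at 12wk. This depends on the marker chosen, since Pdgfra was among the genes most like Fgf10 over the samples, as given below. Col1a1, of the same marker list, went from 303, 317 and 326 FPKM at E14.5 to 8.96 and 5.34 at 12wk. Ratios of Fgf10 to the other mesenchyme markers were not taken. Fgf7 was at 0.124 to 0.265 of Pdgfra in the embryo and at 0.556 and 0.570 at 12wk, above every other sample.

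Etv5 was lower relative to Epcam at each later stage, going from 0.436 to 0.599 at E14.5 through 0.118 and 0.125 at E16.5, through 0.0529 and 0.0671 at E18.5, and through 0.0320 and 0.0343 at P5 to 0.00817 to 0.0220 in the adult. Fgfr2 was at 0.0977 to 0.153 of Epcam at E14.5, at 0.0302 to 0.0482 from E16.5 to P5 and at 0.0355 to 0.0712 in the adult. The ratio of Etv5 to Fgfr2 was 3.92 to 4.67 at E14.5, 0.990 and 1.06 at P5 and 0.186 to 0.4662 in the adult. In each of these 3 ratios the E14.5 samples were above all later samples. The ratios to Epcam also hold the rise of Epcam itself, from 101, 163 and 159 FPKM at E14.5 to 234 and 307 at E16.5.

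**Figure D5:**
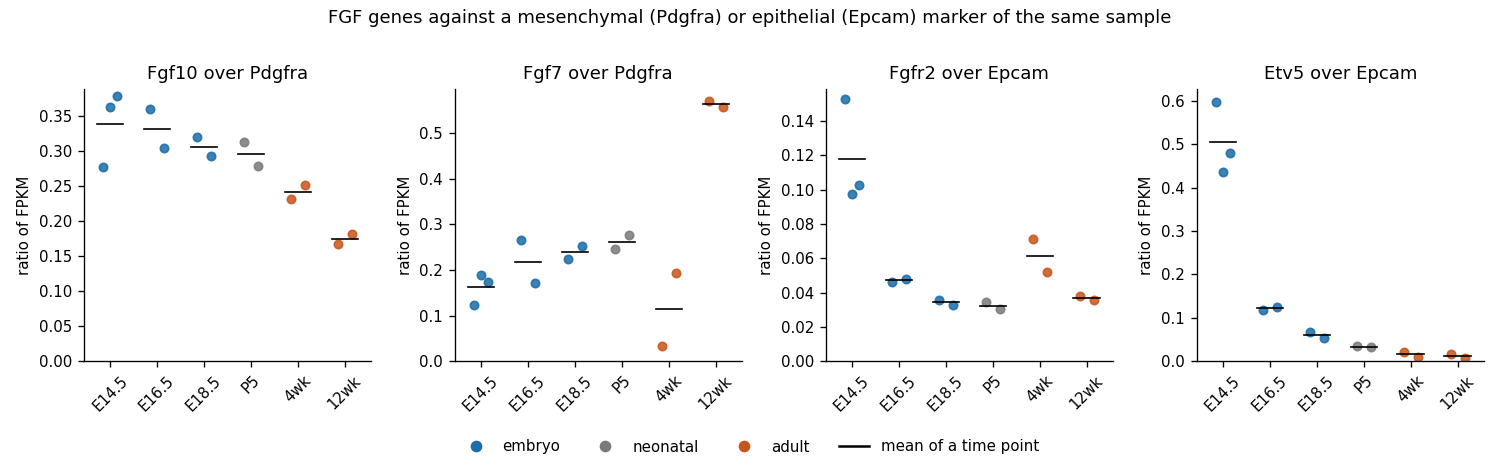
Ratio of the FPKM of Fgf10 and Fgf7 to Pdgfra and of Fgfr2 and Etv5 to Epcam (y axes, linear from 0) in each sample, by time point (x axis). Points are samples, coloured by stage, and black lines are means of a time point. Fgf7 over Pdgfra is highest at 12wk (0.556 and 0.570) and Etv5 over Epcam at E14.5 (0.436 to 0.599).

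Among 9102 genes with a mean of at least 5 FPKM, the profile over the 13 samples most like that of Fgf10 was Tmeff1, at a root mean square difference of 0.13 in log2(FPKM + 1) after centring. Pdgfra (0.14), Lrrc42 (0.17), Gpm6b (0.21) and F2r (0.22) followed, and 3 of the 5 were also among the 5 nearest after rescaling. Nearest to Fgfr2 were Cldn12 (0.14), Afg3l1 (0.15), Rab6a (0.16), Ppp5c (0.17) and Bag4 (0.17), of which 4 remained. Nearest to Etv5 were Mex3a (0.30), Vash2 (0.31), Etv4 (0.33), Skp2 (0.34) and Nr2f1 (0.37), of which 4 remained. Of the 45 pairs of the 10 genes, Etv4 and Etv5 had the smallest difference (0.33) and Fgf1 and Etv5 the largest (1.86). All samples share 1 scale per library, so these distances describe the profiles and carry no test.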

How the data were processed

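Single-end reads of 50 bp were mapped by the authors with TopHat2 2.0.13 and Bowtie2 2.2.6 to the mm9 genome, counted on genes with featureCounts without reads on several places or several genes, and the authors deposited FPKM for each gene and sample. Whether the library preparation kept the strand is not given in the sources used here, and reads of a gene and an antisense partner cannot be told apart. The authors describe normalization with DESeq2 1.10.1, yet the deposited FPKM steps equal whole reads divided by each sample's total, so median-of-ratios rescaling was run beside the values as deposited. Whole reads were recovered for 94.5% of genes, from whole-number steps between the samples of a gene. Of the recovered genes with reads, 99.9% gave a gene length within 0.05 bp of a whole number.

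The values were analysed as log2(FPKM + 1) with limma 3.58.1 in R 4.3.3 (variance trend, Benjamini-Hochberg over 14650 genes), in a fit of 3 stages and a fit of 6 time points over all 13 samples. The call needed an adjusted p under 0.1 and a change of 1 or more on the log2 scale, up or down. This recovered 100% of 200 changed genes in data simulated for adult against embryo. Recovery by the level of a gene or near the fold threshold was not tested, nor was recovery in the other comparisons. Comparisons share samples and their values are not independent. Sequences came from RefSeq. Figures used matplotlib 3.10.9, tables Python 3.11.15 with pandas 2.3.3 and scipy 1.17.1.

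The 10 genes and the gene lists were chosen with earlier results of these data known. Named pathway genes were up to 3 per list and direction with the largest log2 fold change of adult against embryo whose samples do not overlap, and others are named as chosen later. The cartilage genes and all ratios were added after seeing the data.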

Additional observations from a re-analysis of the deposited data

Results flagged for a closer look

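Fgfr3 in E14.5 replicate 1 was at 4.44 FPKM, farther from the other embryonic samples than a 5% test for a single outlying value allows, with the next sample at 2.66 FPKM and a gap of 0.583 of the whole range. It was the only such case among 20 groups of values tested, where chance gives about 1 in 20. In the same library Col2a1 was at 142 FPKM against 2.87 and 4.04 in the other E14.5 samples, Matn1 at 23.8 FPKM against 0.0591 and 0.0187, and Acan at 12.4 FPKM against 0.145 and 0.158. These are cartilage genes, chosen after their values were seen, and their part in the Fgfr3 value was not tested.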

How the results depend on the processing

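Of the 7 genes called lower in the adult against the embryo, Fgf10, Fgfr1, Spry1, Spry2, Etv4 and Etv5 kept their calls under every alternative run, and Fgf7 lost its call under the 3 rescaled fits. Leaving out each sample in turn gave 7 to 8 called genes for adult against embryo, 1 to 3 for neonatal against embryo, 5 to 7 for adult against neonatal, 1 to 2 for E16.5 against E14.5, 0 to 2 for E18.5 against E16.5, 0 to 1 for P5 against E18.5, 6 for 4wk against P5, 1 to 2 for 12wk against 4wk, 0 to 1 for E14.5 against all later time points, and 58 to 64 of the pathway lists.

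Median-of-ratios and upper-quartile rescaling gave 28 and 34 called pathway genes in place of 62, 3 and 3 genes in place of 7 for adult against neonatal, and 0 and 0 in place of 1 for P5 against E18.5. With median-of-ratios rescaling, 13.8% of all genes were called higher and 14.7% lower for adult against embryo. As deposited these shares were 5.58% and 38.0%. For adult against neonatal, 8.53% of all genes were called lower with this rescaling and 20.8% as deposited. Voom on recovered reads called 1 gene for E18.5 against E16.5, where 6.38% of all genes were called. For P5 against E18.5 it called 2, both lower, where 822 of 14626 genes were called lower. With rescaling it called 4 lower for adult against neonatal, where 2189 of 14626 genes were. For adult against embryo, rescaled voom called 40 pathway genes, 5 higher and 35 lower. There it called 2625 of 14626 genes higher and 3165 lower. Both voom fits were chosen after seeing the data. A pseudocount of 0.1 gave 2 for P5 against E18.5.

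Signs that turned belonged to values that were not called. With median-of-ratios, upper-quartile and rescaled voom fits, Fgfr2 in adult against embryo was at 0.14, 0.040 and 0.062, and Fgf7 in E18.5 against E16.5 at 0.10, 0.12 and 0.15. With both rescalings Fgf1 in adult against embryo was at 0.26 and 0.16, and with upper-quartile rescaling Fgfr1 in P5 against E18.5 at 0.026. Fgfr2 in adult against neonatal was at -0.012 with voom, and Fgfr3 in E16.5 against E14.5 at 0.016 with a pseudocount of 0.1 and at 0.11 in both voom fits.

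With each sample left out in turn, log2 fold changes that turned sign were between -0.054 and 0.18 for Fgfr2 in adult against neonatal. For E16.5 against E14.5 they ran from -0.35 to 0.22 for Fgfr1 and -0.22 to 0.35 for Fgfr3. For E18.5 against E16.5 they ran from -0.16 to 0.20 for Fgf1 and -0.23 to 0.18 for Fgf7. For 4wk against P5 the range was -0.38 to 0.52 for Fgf1. For 12wk against 4wk they ran from -0.41 to 0.48 for Fgfr1, -0.13 to 0.47 for Fgfr3, -0.11 to 0.36 for Spry2, -0.068 to 0.23 for Etv4 and -0.45 to 0.37 for Etv5.

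Deviations from the group means correlated at -0.016 on average (-0.352 to 0.273) in 30 pairs of samples sharing a replicate number. They correlated at 0.012 (-0.273 to 0.352) in 40 others, and 4 of 13 samples correlated best with their own number. In a group with a single pair of samples the deviations are exact opposites, so the values for shared and differing numbers mirror each other. Whether replicate numbers pair the samples in some groups was thus not tested. With the replicate number as a block, Etv5 lost its call for E16.5 against E14.5 (-0.99, adjusted p = 0.069, limma), which left 1 called gene there and 0 for E14.5 against all later time points. Of the single-gene values under other settings, 689 kept direction and side of the threshold, 31 lost and 17 gained a call. With samples left out these numbers were 996, 21 and 8. Depth at 4wk, with at most 45 reads for Fgf7, Fgfr3, Etv4 and 1 Etv5 value, limits what can be told of these genes.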
